A study of Arabidopsis thaliana with 6 samples.

Results

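The loci described here are genes that lie side by side on the Arabidopsis chromosomes and that all had less transcript in the pkl mutant than in the wild type (WT). The authors' deposited table lists 2896 loci, every one lower in pkl at a q-value under 0.05 in the authors' deposited table. After sorting the 2894 loci of chromosomes 1 to 5 by position, a locus was kept when the next or the previous one lay at a gap of 2000 bp or less. This gave 584 loci (20.2%), joined into 267 runs with 317 pairs of neighbours, and left 2310 other loci. The 2 remaining loci lie on the organelle genomes. As background, the deposited p-values and q-values imply 19554 tests, of which 14.8% were listed as lower in pkl. Every locus was chosen by its lower FPKM in pkl and its q-value, so the differences between genotypes below are a description and carry no test.

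RNA sequencing had been done on whole seedlings of Arabidopsis thaliana, aged 14 days and kept under long-day conditions. There were 3 libraries of the wild type and 3 of pkl; both genotypes shared age, day length and tissue. The labels name no pkl allele and do not say whether the replicates were separate cultures. Expression was given as FPKM, fragments scaled by transcript length and sequencing depth, with 1 value per genotype, so no replicate spread can be given and the depth is unknown. The transcript of PKL itself was lower in the mutant (6.79 FPKM, against 19.2 FPKM in WT).

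PKL (PICKLE) encodes a CHD3-type chromatin remodeler, an enzyme that uses ATP to move or assemble nucleosomes; in Arabidopsis it is known for keeping embryonic genes silent in seedlings and for its link to the histone mark H3K27me3. Neighbouring plant genes can share transcription for several reasons: tandem duplicates carry copied promoters, divergent genes start from a common intergenic stretch, and chromatin domains can span several genes. Whole seedlings mix many cell types, and fewer cells of a type cannot be told apart from less RNA per cell.

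Sequence likeness within runs is shown first. Of the 31 loci in runs at least 4-fold lower, 13 lay in pairs with like proteins, as did 90 of all 584. Such pairs are here called tandem duplicates (neighbouring copies of an ancestral gene). Of the genes printed below, only AT4G22517 and AT3G62950 were at least 4-fold lower. The coding sequences below are from the RefSeq genome TAIR10.1, printed 5′ to 3′. The first pair, AT4G22513 and AT4G22517 on the plus strand of chromosome 4, encodes putative lipid-transfer proteins of 1 run and is identical at 333 of 348 bases; positions 1 to 240 are shown, and capitals mark the bases that differ.
AT4G22513: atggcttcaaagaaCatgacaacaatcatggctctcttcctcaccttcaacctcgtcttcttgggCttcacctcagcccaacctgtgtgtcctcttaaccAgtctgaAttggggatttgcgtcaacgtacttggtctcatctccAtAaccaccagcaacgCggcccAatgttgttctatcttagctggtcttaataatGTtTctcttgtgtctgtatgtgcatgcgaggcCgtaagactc
AT4G22517: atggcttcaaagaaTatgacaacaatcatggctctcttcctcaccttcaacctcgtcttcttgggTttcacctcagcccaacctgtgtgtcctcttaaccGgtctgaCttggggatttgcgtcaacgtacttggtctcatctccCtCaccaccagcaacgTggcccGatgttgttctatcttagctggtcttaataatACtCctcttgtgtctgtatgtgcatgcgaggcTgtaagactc

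The second pair, KIN1 (AT5G15960) and KIN2 (AT5G15970) on the plus strand of chromosome 5, encodes small proteins induced by cold and drought, and the pair is identical at 191 of 201 bases. Capitals again mark the differing bases.
KIN1: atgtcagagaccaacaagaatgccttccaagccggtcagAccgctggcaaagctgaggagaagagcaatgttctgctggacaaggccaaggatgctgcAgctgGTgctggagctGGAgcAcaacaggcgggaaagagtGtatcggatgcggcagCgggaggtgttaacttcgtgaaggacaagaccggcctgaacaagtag
KIN2: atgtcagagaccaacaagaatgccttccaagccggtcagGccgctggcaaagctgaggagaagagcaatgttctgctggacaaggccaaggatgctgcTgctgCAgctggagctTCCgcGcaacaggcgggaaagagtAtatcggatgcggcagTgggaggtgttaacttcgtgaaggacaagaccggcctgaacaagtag

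The third set is a stretch of 75 bases, positions 19 to 93 of the coding sequence, from the 4 glutaredoxin genes in runs, small redox enzymes of the plant-specific CC class. It is identical at 37 positions in all 4, and capitals mark bases that differ from the most frequent base at a position. At a tie the alphabetically first base was taken as the reference. The chromosome 3 copies have 15 and 21 capitals, and the chromosome 4 copies have 8 and 9. Where the chromosome 3 copies share a base and the chromosome 4 copies another, the alphabet alone decides which are marked. These counts therefore do not rank the copies by divergence.
AT3G62950: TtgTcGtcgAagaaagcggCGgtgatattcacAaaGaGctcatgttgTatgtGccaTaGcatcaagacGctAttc
AT3G62960: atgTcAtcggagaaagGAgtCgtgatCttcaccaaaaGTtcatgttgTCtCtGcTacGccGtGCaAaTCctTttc
AT4G15670: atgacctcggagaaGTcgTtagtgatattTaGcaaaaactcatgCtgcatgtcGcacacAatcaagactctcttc
AT4G15680: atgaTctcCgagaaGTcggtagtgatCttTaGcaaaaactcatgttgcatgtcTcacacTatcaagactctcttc

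Within runs, loci were lower by about as much as elsewhere in the table. The median ratio of pkl to WT was 0.649 in the 584 loci (quartiles 0.481 and 0.757) and 0.659 in the other 2310 (quartiles 0.496 and 0.760). Expressed as folds, the medians were 1.54-fold and 1.52-fold lower. The middle of the distribution was thus nearly the same with and without a listed neighbour, and which median was lower turned with the choice of pairs. At a gap of up to 500 bp the medians were 0.679 in runs and 0.654 elsewhere, at up to 1000 bp 0.661 and 0.657, and without pairs of like proteins 0.663 and 0.659. In runs, 163 loci (27.9%) were lower by 2-fold or more, as were 585 other loci (25.3%), against 25.8% of all loci on the 5 chromosomes. For 4-fold or more, these numbers were 31 (5.31%) and 101 (4.37%). The WT level was also close, with medians of 17.6 and 16.5 FPKM. In runs, WT levels reached from 0.479 to 11129 FPKM, folds from 1.17 to 34.1, and 13 loci stood under 1 FPKM in WT.

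Most runs were short. There were 227 runs of 2 loci, 32 of 3, 6 of 4 and 2 of 5. The median run spanned 6.76 kb and the longest 21.7 kb. The median fold was 1.56 in runs of 2, 1.51 in runs of 3, 1.52 in runs of 4 and 1.71 in runs of 5, so it did not climb steadily with length. In 25 runs every locus was at least 2-fold lower; all 25 were runs of 2 loci. The share of a chromosome's listed loci that lay in runs went from 17.9% on chromosome 3 (93 of 519) to 23.3% on chromosome 4 (116 of 498).

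**Figure D1:**
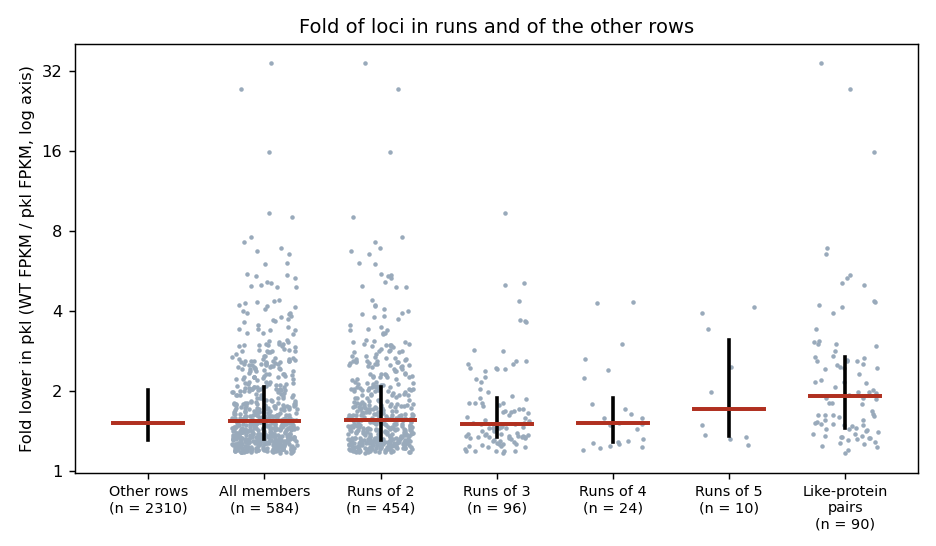
Fold by which the pkl level was below WT, on a log axis, for loci in runs of each length and for all other loci; each grey point is 1 locus in a run (no points are drawn for the other loci), red lines give medians and black lines quartiles. The last column holds the 90 loci in like pairs. By run length, the medians lie between 1.51 and 1.71, and the loci with the largest folds are in runs of 2.

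Over all orientations, neighbours in a run had ratios about as close as those of listed loci far apart. The absolute difference of log2 ratios (pkl over WT) within a pair had a median of 0.36 in runs (quartiles 0.14 and 0.71; 317 pairs) and 0.38 between consecutive listed loci farther apart (quartiles 0.14 and 0.77; 2572 pairs). The correlation of the log2 ratios of left and right neighbour, across pairs of loci that share the same libraries and partly share loci, was Pearson 0.23 and Spearman 0.13 in runs, and 0.04 and 0.03 farther apart. Likeness in runs was weak by this measure. Divergent neighbours were closer, with a median difference of 0.29 and a Pearson correlation of 0.37 (Spearman 0.15) in 47 pairs in runs, against 0.39 and 0.02 (Spearman -0.04) in 632 divergent pairs farther apart. The loci of the 47 pairs also had a smaller median fold, 1.38 against 1.52 in the 632. Both loci were at least 2-fold lower in 4 of the 47 pairs (8.51%) and in 38 of the 632 (6.01%). The part of smaller folds in the smaller difference was not tested. On the same strand the median differences were 0.38 and 0.35, and for convergent neighbours 0.32 and 0.38. Both neighbours were at least 2-fold lower in 33 pairs in runs (10.4%) and in 173 pairs farther apart (6.73%).

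Strong joint differences were more frequent among pairs with like proteins. Like proteins were those with an alignment of no less than 50% identity that covered 70% or more of the longer protein. Both neighbours were at least 2-fold lower in 12 of 48 such pairs (25%) and in 21 of the 269 other pairs in runs (7.81%). Taken singly, loci in like pairs were also more often at least 2-fold lower, 41 of 90 (45.6%) against 122 of 494 (24.7%). For the 269 pairs the correlation of log2 ratios was Pearson 0.15 and Spearman 0.06. Like pairs differed more between the partners, with a median absolute difference of 0.47 against 0.34 in the other pairs. Their log2 WT levels correlated at Pearson 0.54 (48 pairs), against 0.01 in the 269 others. Loci in like pairs stood lower in WT, with a median of 13.7 FPKM against 18.9 FPKM in the other 494. A near-identical coding copy, which leaves the split of reads uncertain, was present for 6 of the 90 (6.67%) and 3 of the 494 (0.607%). The part of WT level and shared reads in these contrasts was not tested.

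**Figure D2:**
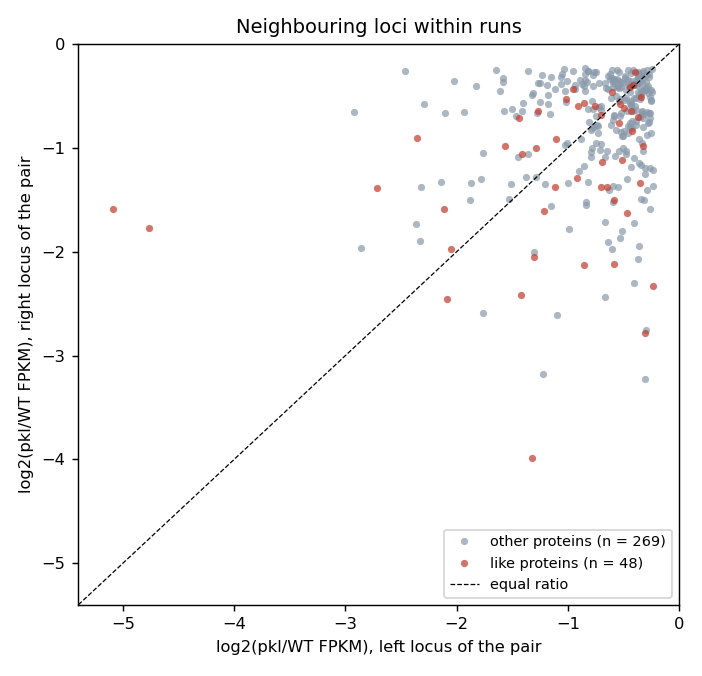
log2 ratio of pkl to WT for the left (x axis) and right (y axis) locus of each pair in a run; red points are the 48 pairs with like proteins, grey points the other 269, and the dashed line marks equal ratios. Most pairs sit near the upper right corner, where both loci are less than 2-fold lower, and the points farthest to the left are like pairs.

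Within runs, at gaps of up to 2000 bp, the gap within a pair went with the size of the difference. At gaps from 0 to under 500 bp, 1 of 101 pairs had both loci at least 2-fold lower (0.99%), and the loci of these pairs had a median fold of 1.45. At gaps from 500 to 2000 bp it was 30 of 201 pairs (14.9%), with a median fold of 1.58. The remaining 2 such pairs were among the 15 pairs of overlapping loci. Separate loci under 500 bp apart were thus seldom strongly lower together. The absolute difference of log2 ratios was smallest at 0 to under 250 bp, with a median of 0.22 in 42 pairs, and was 0.41 at 1000 to 2000 bp in 119 pairs. The correlation of log2 ratios went the other way. It was Pearson -0.032 (Spearman -0.018) in the 42 pairs and Pearson 0.296 (Spearman 0.154) in the 119. A small difference at short gaps thus came without correlated ratios, and the part of the smaller folds in it was not tested. Median WT levels were 19.7 FPKM at under 500 bp and 18.7 FPKM at 500 to 2000 bp. For pairs beyond 2000 bp, the trend with gap did not continue. The median difference was 0.44 at over 2000 to 5000 bp and 0.37, 0.36 and 0.37 in the wider bins. Both loci were at least 2-fold lower in 6.73% of the 2572 pairs farther apart.

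**Figure D3:**
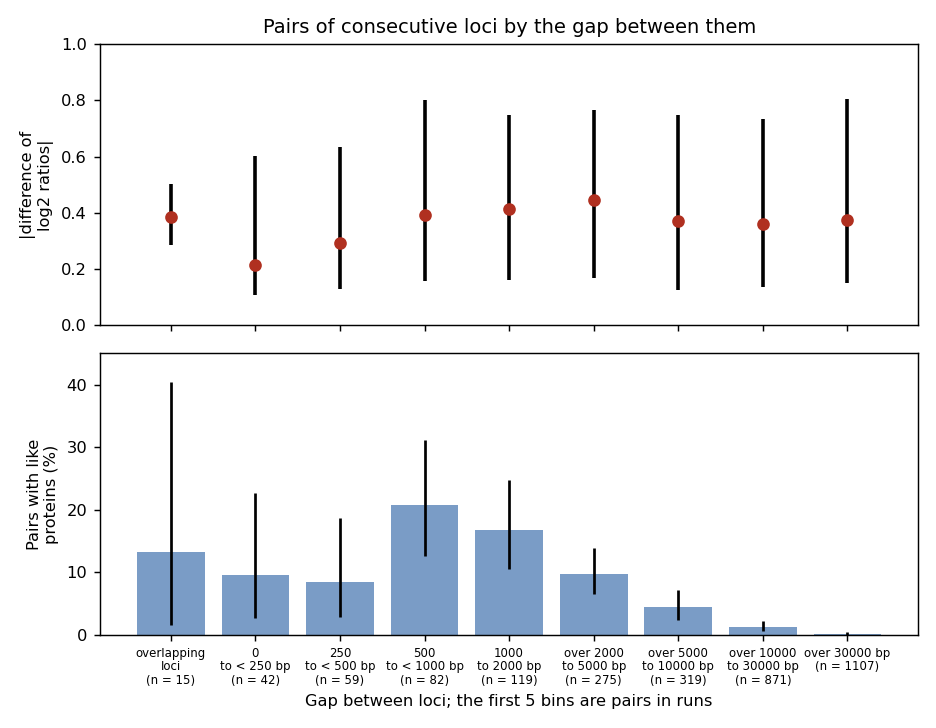
Top, median (point) and quartiles (line) of the absolute difference of log2 ratios for consecutive listed loci, by the gap between them in bp. Bottom, percentage of pairs with like proteins with its 95% exact binomial interval. The smallest median difference, 0.22, is at 0 to under 250 bp, and like pairs go from 20.7% at 500 to under 1000 bp to 0.09% over 30000 bp.

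A gene was listed somewhat more often where its neighbour was listed, and the contrast was widest among like proteins. Of the 27444 annotated protein-coding genes on chromosomes 1 to 5, 2959 (10.8%) were in the table. Pairs of annotated neighbours in 1 merged locus, 119 at any distance and all with both genes listed, were left out of the shares below. Among 20679 other pairs of annotated neighbours at most 2000 bp apart, a gene was listed in 13.1% of cases when its neighbour was listed. It was listed in 8.97% when its neighbour was not. With like proteins the shares were 33.3% and 7.31% (1336 pairs, 44 with both listed). Without them they were 11.6% and 9.09%, and 210 of the 254 pairs with both genes listed had other proteins. Among neighbours with other proteins, the shares were 12.3% and 8.72% on the same strand, 12.4% and 8.14% for divergent genes, and 10.2% and 10.4% for convergent genes. Annotated neighbours over 2000 bp apart also differed, at 18.6% and 12.8%. Genes not expressed in seedlings count here as not listed, and the part of neighbours silent together in these shares was not tested.

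**Figure D4:**
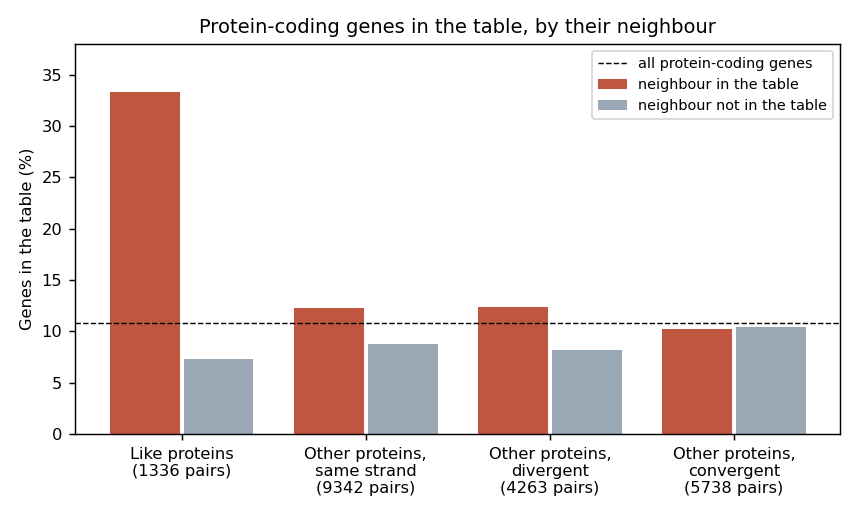
Percentage of annotated protein-coding genes that were in the table of lower loci, by whether the neighbouring gene was in it or not, for kinds of neighbours; bars start at 0 and the dashed line marks the 10.8% of all protein-coding genes. The like-protein neighbours show 33.3% against 7.31%, and convergent neighbours with other proteins 10.2% against 10.4%.

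Tandem duplicates were more frequent in runs than among listed loci farther apart. Like proteins were found in 48 of 317 pairs in runs (15.1%, 95% exact binomial interval 11.4 to 19.6) and in 53 of 2572 consecutive listed loci farther apart (2.06%, 1.55 to 2.69); the intervals cover counting error only, and pairs in the same array are not independent. The comparison is between different distances, and tandem copies lie close together in the genome whether listed or not. Of the 20679 pairs of annotated neighbours at most 2000 bp apart, 1336 had like proteins. Among the 254 of these pairs with both genes listed, 44 had like proteins. For these annotated pairs, gaps were taken between genes and merged loci were left out. Counted in the annotation instead, 124 of 575 loci in runs (21.6%) had a like gene within 5 genes on either side, against 272 of 2260 other loci (12.0%) and 3736 of all 27444 protein-coding genes (13.6%). Such a copy was itself listed for 98 of the 124 (79.0%) and for 82 of the 272 (30.1%). The choice of listed neighbours partly fixes this contrast and also that between 21.6% and 12.0%. It places loci with a listed copy close by in the runs and takes them out of the other loci. The 90 loci in like pairs had a median fold of 1.91, with 41 (45.6%) at least 2-fold lower, against 1.51 and 122 (24.7%) in the other 494. Identity within like pairs ran from 50% to 96.7%, with a median of 78.4%.

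Of the 2 runs of 5 loci, the one with the lower median ratio was an array of putative lipid-transfer proteins on chromosome 4. The first pair of sequences belongs to it. These proteins are small secreted members of the family that carries lipids or forms part of the cell wall and cuticle. AT4G22490 (positions 11849701 to 11850331) went from 61.3 FPKM in WT to 30.8 in pkl, a 1.99-fold difference. AT4G22505 (11851228 to 11853018) went from 18.5 to 5.39 FPKM, and AT4G22520 (11858437 to 11860303) from 15.5 to 3.93 FPKM. All 5 genes were lower, by 1.99-fold to 4.15-fold. AT4G22513 stood at 52.3 and 21.2 FPKM and AT4G22517 at 57.8 and 13.9 FPKM. The table gives these near-identical copies the same locus (11854809 to 11857318), so how reads were split between them is uncertain.

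The other run of 5, also on chromosome 4, mixed unrelated genes with small differences. AT4G14500, a protein of the lipid-transport superfamily, stood at 56.8 FPKM in WT and 42.0 in pkl, and AT4G14520, like a subunit of RNA polymerase II, at 13.8 and 9.21 FPKM. NF-YB3, a transcription factor subunit that promotes flowering in long days, stood at 58.1 and 46.1 FPKM. IAA14, an Aux/IAA repressor of auxin response, stood at 11.5 and 8.65 FPKM. An unnamed locus at 8345900 to 8346779 stood at 11.4 and 8.34 FPKM. The folds of all 5 lay between 1.26 and 1.5, in contrast to the lipid-transfer array.

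Of the 6 runs of 4, the 3 with the lowest median ratio are described. The desaturases on chromosome 1 were tandem copies, enzymes that put double bonds into fatty acids. ADS1, a delta 9 desaturase, stood at 14.3 FPKM in WT and 9.91 in pkl, and AT1G06090 at 19.6 and 13.1 FPKM. AT1G06100 stood at 2.88 and 0.664 FPKM, and AT1G06120 at 4.85 and 1.62 FPKM, with a further protein-coding gene annotated between them. The more weakly expressed copies had the larger folds, 4.34 and 3.0 against 1.45 and 1.5. On chromosome 5, PIF7, a bHLH factor of shade responses, stood at 12.7 and 8.0 FPKM beside GUS1, a glucuronidase, at 7.18 and 3.21 FPKM. SNAP33, a membrane-fusion protein that shares its locus with AT5G61228, stood at 99.1 and 77.8 FPKM, and AT5G61200 at 4.39 and 2.44 FPKM. Folds in that run went from 1.27 to 2.24. On chromosome 3, LHCA1, an antenna protein of photosystem I, stood at 6035 and 3517 FPKM, and its neighbours PUB14, AT3G54880 and CXIP1 had folds of 1.65, 1.53 and 1.23 beside 1.72 for LHCA1.

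**Figure D5:**
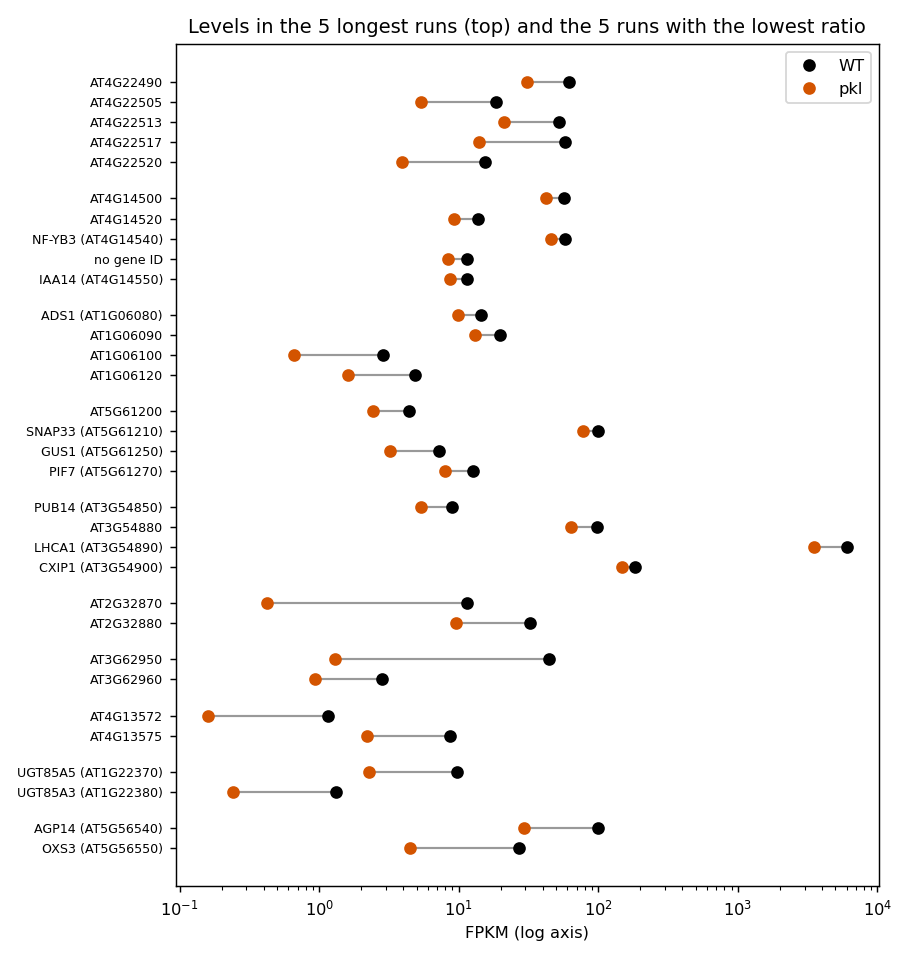
WT and pkl levels in FPKM, on a log axis, for each locus of the named runs; the points of a locus are joined by a line. The pkl value is the lower of the points at every locus, and line lengths differ widely within the glutaredoxin run of chromosome 3 and the TRAF-like run of chromosome 2.

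The 5 runs with the lowest median ratio were all pairs, and in 2 of them, both of like genes, 1 partner was far lower than the other. On chromosome 3, the glutaredoxin gene AT3G62950 (23266249 to 23266934) stood at 44.4 FPKM in WT and 1.30 in pkl, 34.1-fold lower, while AT3G62960 stood at 2.80 and 0.934 FPKM, 3.0-fold lower. On chromosome 2, AT2G32870 (13944611 to 13946790) stood at 11.5 and 0.422 FPKM and AT2G32880 at 32.4 and 9.48 FPKM; both encode TRAF-like proteins. The log2 ratios of these pairs differed by 3.50 and 3.0, the largest differences among pairs with at least 1 FPKM in WT in both loci. Among the 5 like pairs with the lowest mean ratio, the uncharacterized AT1G67865 stood at 52.9 and 3.34 FPKM beside its like neighbour AT1G67860 at 45.3 and 18.1 FPKM. The glucosyltransferase genes UGT85A5 and UGT85A3 were closer together in fold, at 4.24 (9.71 and 2.29 FPKM) and 5.47 (1.32 and 0.241 FPKM). Of unlike genes, AGP14, an arabinogalactan protein of the cell surface, stood at 99.0 and 29.1 FPKM beside OXS3, a stress-tolerance protein, at 26.8 and 4.45 FPKM. AT4G13572 and AT4G13575, both uncharacterized, were 7.25-fold and 3.90-fold lower, the former at 1.15 FPKM in WT.

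In other pairs a strongly lower gene lay beside one that was hardly lower. AT4G37220, of the cold acclimation WCOR413 family, stood at 19.8 FPKM in WT and 2.11 in pkl, while AT4G37210 next to it stood at 16.8 and 13.6 FPKM. SEN1, a gene induced by darkness and senescence, stood at 598 and 88.7 FPKM, while the divergent locus of LTO1, a thylakoid thiol oxidoreductase, and AT4G35750 stood at 241 and 196 FPKM. The same held for some copies. HOL1, a methyltransferase that makes methyl halides, stood at 303 and 257 FPKM, 1.18-fold lower, and its copy HOL2 (83.3% identity) at 14.5 and 2.88 FPKM, 5.04-fold lower. The glutathione transferase GSTU13 stood at 76.1 and 61.3 FPKM and GSTU14 at 5.15 and 0.748 FPKM, with a further protein-coding gene annotated between them. These 2 copied pairs were chosen after their values were seen.

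Genes facing away from each other start from the same intergenic stretch, so that stretch is shown for 3 of the 5 divergent pairs with the lowest mean ratio. Of the other two, CYP82F1 and PKL have a further gene between them, and AT4G22505 and AT4G22513 belong to the lipid-transfer array. Of the 317 pairs in runs, 47 (14.8%) were divergent, 173 (54.6%) on the same strand and 93 (29.3%) convergent. Annotated neighbours within 2000 bp, without those in 1 merged locus, were 20.8% divergent, 51.3% on the same strand and 27.9% convergent. Their gaps were taken between genes and not between loci. Of the 254 annotated pairs with both genes listed, on that same basis, 47 (18.5%) were divergent, 143 (56.3%) on the same strand and 64 (25.2%) convergent. The windows are the 200 central bases between the annotated genes, on the plus strand of TAIR10.1. Capitals mark any match, on either strand, to CACGTG (G-box), AAATATCT (evening element), CCGAC (the core of the CRT/DRE cold element), TGGGCC (site II) or TATAAA (the letters of a TATA box). HOL2 and the protein kinase gene AT2G43930 were 5.04-fold and 3.72-fold lower (AT2G43930 stood at 1.01 and 0.271 FPKM), and their window at chr2:18192143-18192342 holds CCGAC and the TATA letters, the latter matched on both strands with an overlap. The RING protein gene AT1G02610 (24.5 and 8.49 FPKM) and the small GTPase gene AT1G02620 (3.75 and 1.34 FPKM) were 2.88-fold and 2.81-fold lower, with no match at chr1:556522-556721. The LTO1 and SEN1 window at chr4:16944678-16944877 holds site II on both strands, beside folds of 1.23 and 6.74.
HOL2 and AT2G43930: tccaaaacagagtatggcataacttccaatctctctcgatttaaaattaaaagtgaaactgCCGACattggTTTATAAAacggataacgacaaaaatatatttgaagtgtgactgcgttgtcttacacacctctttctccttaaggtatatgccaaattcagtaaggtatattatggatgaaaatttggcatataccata
AT1G02610 and AT1G02620: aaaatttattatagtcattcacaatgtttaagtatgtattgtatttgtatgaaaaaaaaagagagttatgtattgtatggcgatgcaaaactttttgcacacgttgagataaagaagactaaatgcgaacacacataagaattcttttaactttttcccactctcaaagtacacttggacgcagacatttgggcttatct
LTO1 and SEN1: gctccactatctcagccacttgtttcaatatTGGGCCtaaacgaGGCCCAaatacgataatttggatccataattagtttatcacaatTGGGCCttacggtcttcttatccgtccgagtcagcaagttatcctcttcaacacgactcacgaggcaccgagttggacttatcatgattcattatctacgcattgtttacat

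Across 2796 such windows between annotated divergent genes, CCGAC occurred in 7.87% and in 5 of the 36 with both genes listed (13.9%). TGGGCC occurred in 9.55% and in 5 of 36 (13.9%). TATAAA occurred in 38.9% and 15 of 36 (41.7%), AAATATCT in 4.43% and 2 of 36 (5.56%), and CACGTG in 3.93% and 1 of 36 (2.78%). With 36 windows, a difference of a few windows moves these shares widely, and a match describes letters, not a binding site.

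The mutated gene itself lay in a run. PKL (AT2G25170, chromosome 2, 10712606 to 10723986) stood at 19.2 FPKM in WT and 6.79 in pkl, a log2 ratio of -1.50 with a q-value of 0.000338 in the authors' deposited table. CYP82F1, a cytochrome P450 gene on its upstream side, stood at 5.62 and 1.53 FPKM, 3.68-fold lower. RR12, a cytokinin response regulator that converges on PKL at a gap of 314 bp, stood at 15.2 and 9.88 FPKM, 1.54-fold lower. All 3 were thus lower, with 1 further protein-coding gene annotated between CYP82F1 and PKL. Since the allele is not given, an effect of the mutation on its own neighbourhood cannot be told apart from an effect of lost PKL.

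Known arrays and gene pairs gave a mixed picture. Of 68 genes in 21 lists of tandem arrays and clusters, 32 were in the table, in 31 loci, and 11 of these loci were in runs. The lists were chosen with earlier results of these data known, so their share is not set against the 10.8% of all protein-coding genes. The antenna genes of photosystem II LHB1B2 (AT2G34420) and LHB1B1 (AT2G34430), with proteins 96.2% identical, held the highest level: LHB1B2 stood at 11129 FPKM in WT and 6899 in pkl, and LHB1B1 at 3426 and 1559 FPKM. KIN1 stood at 7.45 and 2.79 FPKM and KIN2 at 174 and 83.7 FPKM; their near-identical coding sequences leave the split of reads uncertain. The folds of these pairs lay between 1.61 and 2.67. All 5 glutaredoxins of the chromosome 4 array were listed, but only AT4G15670 (8.46 and 3.92 FPKM) and AT4G15680 (14.7 and 7.80 FPKM) were within 2000 bp, the other gaps being 2028, 2471 and 2720 bp. The myrosinase genes TGG1 (637 and 252 FPKM) and TGG2 (40.2 and 27.7 FPKM), whose enzymes split glucosinolates, were in a run with AT5G25990 between them at 2.13 and 0.584 FPKM. THAS1, the thalianol synthase, stood at 4.14 and 2.17 FPKM; its neighbour in the run, AT5G48020, was 1.32-fold lower and is no member of the thalianol list. None of SAUR19 to SAUR24, LTP1 to LTP4 or the VSP pair was in the table.

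Several other pairs, chosen after their values were seen, had both genes at least 2-fold lower. BCAT-1 (20.4 and 7.60 FPKM) and BCAT-2 (56.6 and 10.6 FPKM) encode aminotransferases of branched-chain amino acids. CLE5 (6.49 and 0.987 FPKM) and CLE6 (4.87 and 1.86 FPKM) encode small signalling peptides. The lipid-recognition genes AT5G23830 (27.4 and 11.8 FPKM) and AT5G23840 (4.74 and 1.55 FPKM) also belong to this group. These 3 are pairs of copies, at 61.8%, 79.0% and 77.7% identity. Unlike neighbours were SUC2, the sucrose carrier of phloem loading, at 49.2 and 18.9 FPKM beside the gibberellin-regulated AT1G22690 at 370 and 74.2 FPKM. A further protein-coding gene is annotated between SUC2 and AT1G22690, whose annotated genes lie 2418 bp apart. TIFY7, a JAZ repressor of jasmonate response, stood at 28.5 and 7.09 FPKM beside HWI1 at 9.33 and 3.77 FPKM. The microRNA loci MIR169k with MIR169l (2.02 and 0.390 FPKM) and MIR169m with MIR169n (1.69 and 0.511 FPKM) were 5.17-fold and 3.31-fold lower as precursor loci.

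Loci with an annotated product tied to photosynthesis, a group picked after the values were seen, were 14 of the 584 in runs (2.4%) and 37 of the 2310 others (1.6%). In runs, the products counted included photosystem, chlorophyll and thylakoid names, OHP and a magnesium-chelatase subunit. The 14 sat in 13 runs that held 34 loci in all, their neighbours included. PSAD-2, a photosystem I subunit that shares its locus with AT1G03140, stood at 974 FPKM in WT and 516 in pkl, with the tRNA-modification gene TRM82 beside it at 10.3 and 8.03 FPKM. PSAK stood at 4230 and 3008 FPKM beside ERD4, induced by dehydration, at 184 and 73.6 FPKM. A further protein-coding gene is annotated between TRM82 and PSAD-2, and likewise between ERD4 and PSAK. PSI-P stood at 1324 and 916 FPKM beside the clock gene CCA1 at 1.51 and 0.933 FPKM. Levels within such pairs could thus differ by orders of magnitude while both loci were listed. GUN5, a subunit of the magnesium chelatase of chlorophyll synthesis, stood at 311 and 206 FPKM in a run with PDAT (24.9 and 19.4 FPKM), SVR3 (107 and 87.4 FPKM) and AT5G13660 (4.07 and 1.54 FPKM).

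Of the markers fixed for tissues, all 4 root markers were listed, CASP1 at 48.5 and 25 FPKM, IRT1 at 1.96 and 0.959 FPKM, COBL9 at 3.89 and 2.42 FPKM, and THAS1 as given. Of 3 green-tissue markers, LHCB1.1 (AT1G29920) and LHCA1 were listed and RBCS1A was not. None of the 6 listed stood at 0, and markers of root and green tissue were both lower in pkl; their part in the results was not tested.

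A locus in the table is the stretch assembled by the authors and can pass the ends of its gene. Of 553 loci in runs with 1 annotated gene, 84 reached over 1000 bp past it. A further protein-coding gene lay between the named genes of 57 of the 317 pairs, and in 40 pairs the annotated genes were over 2000 bp apart. All 15 pairs of overlapping loci had identical coordinates, 12 had genes on opposite strands, and 2 held the same gene identifier for both loci, so that they were not pairs of different genes. Strandedness is not stated, so reads of such genes cannot be told apart. Runs held 28 loci with several merged genes (4.79%, against 4.89% of other loci), 2 with no identifier, and 9 with a near-identical coding copy. At the threshold itself, RGP4 (0.653 and 0.171 FPKM) and AT5G50760 (50.8 and 32.3 FPKM) were just inside at a gap of 2000 bp. DEAR3 (19.1 and 14.5 FPKM) and the MIR844 locus with AT2G23348 (1.90 and 0.753 FPKM) were just outside at 2006 bp.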

How the data were processed

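Total RNA of 3 wild-type and 3 pkl seedling libraries had been sequenced. Alignment with TopHat and testing with Cufflinks 2.1.1 and Cuffdiff 2.1.1 on TAIR10 are per the submitters' processing notes. The authors' deposited table gives FPKM, 1 value per genotype, per the file headers. The deposited log2 fold change is that of pkl over WT and matched the ratio of the FPKM values within 1.2e-05; ratios were taken with no pseudocount. The authors' test statistic, a signed score, was not used. The p-value and q-value columns are as deposited by the authors, and the number of tests was derived from their ratio, assuming Benjamini-Hochberg adjustment. Depth per library and replicate spread are not given in the sources used here; for this reason, and because the contrast chose the loci, no test was run.

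Loci were placed by the coordinates of the table (starts counted from 0, printed from 1). Of 3033 gene identifiers, 3024 had an entry in the RefSeq annotation of TAIR10.1, and 2740 of 2740 single-gene loci overlapped their gene. Protein likeness came from local alignments (Biopython 1.88, BLOSUM62) of proteins translated from that annotation; near-identical coding copies had 95% identity over 80% of their length (BLAST+ 2.17.0). Summaries used Python 3.11.15 with pandas 2.3.3, numpy 2.4.6 and scipy 1.17.1, and figures matplotlib 3.10.9; the run-finding code was tested on simulated data.

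The named loci were the 5 runs with the most loci (ties broken by the lower median ratio, which favours larger differences among the 6 tied runs of 4), the 5 runs with the lowest median ratio, the 5 like pairs and 5 divergent pairs with the lowest mean ratio, the 3 least alike pairs, the pairs at the gap threshold, and listed arrays in runs; the kinds ranked by ratio or likeness needed 1 FPKM in WT. Others are marked as chosen after their values were seen. The members, lists and rules were chosen with earlier results of these data known.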

Additional observations from a re-analysis of the deposited data

How the results depend on the processing

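The number of loci in runs, 584 with a gap of up to 2000 bp, was 229 at 500 bp, 379 at 1000 bp, 1051 at 5000 bp, 320 with q under 0.01 in the authors' deposited table, and 64 among loci at least 2-fold lower. Runs of 3 or more loci, 40 in the main count, numbered 2, 15, 103, 23 and 1 under the same settings. Each of these settings changes the gap or leaves fewer loci by construction. The median ratio of pkl to WT, 0.649, was 0.679 at 500 bp and 0.698 with a pseudocount of 1 FPKM. The median absolute difference of log2 ratios between neighbours, 0.36, was 0.29 at 500 bp and 0.27 with that pseudocount. Like proteins made up 15.1% of pairs, 9.48% at 500 bp (an alternative chosen after the data were seen) and 10.4% with a minimum identity of 70%. For the pseudocount, added FPKM shrink ratios of weak loci; for the other ratios the cause was not tested. With the other loci recomputed under each setting (added after the data were seen), the median ratio was lower in runs than elsewhere in 6 of 9 settings, the main one included, and higher in 3: gaps of up to 500 bp (0.679 against 0.654) and 1000 bp (0.661 against 0.657), and no like pairs (0.663 against 0.659). Neighbours in runs were closer than loci farther apart in 7 of 9, but not at 5000 bp (0.39 against 0.37) or with 1 FPKM added (0.27 against 0.26). No paired analysis was possible because each genotype has a single combined FPKM per locus. Leaving out each replicate was not run for the same reason.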
